A study of Caenorhabditis elegans with 6 samples.

Results

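Transcript levels of 3 families of oxidoreductase genes were followed in whole Caenorhabditis elegans: the short-chain dehydrogenases named dhs-, the aldehyde dehydrogenases named alh- and the flavin-containing monooxygenases named fmo-. The members were taken by these symbol prefixes from probe sets that list a single gene, and the probe set with the highest mean over all 6 samples stood for its gene. This gave 48 genes of the 17118 genes measured, with 30 dhs, 13 alh and 5 fmo genes, and they are all 48 genes that carry these prefixes in the RefSeq table used for gene names. Every sample came from strain CB3474, which carries ben-1(e1880)III, grown in liquid culture for 70 h from the first larval stage. In the 3 albendazole samples (ABZ) whole adults met 300 µg/ml of the drug for 4 h in medium with 1.5% DMSO by volume, and the 3 control samples (DMSO) had 1.5% DMSO alone for 4 h. The gene ben-1 encodes a β-tubulin, and worms that lose it resist albendazole and other benzimidazoles. Treated and control worms share this mutation and this single strain, so worms with an intact ben-1 were not compared. The samples are labelled as biological replicates 1 to 3 of each group.

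These families carry out first-phase reactions, in which a foreign or internal molecule gains or exposes a reactive group. Short-chain dehydrogenases use nicotinamide cofactors to interconvert alcohols with ketones or aldehydes on steroids, lipids and drugs. Aldehyde dehydrogenases oxidise aldehydes to acids and also close several routes of amino acid, folate and lipid metabolism. Flavin-containing monooxygenases add oxygen to nitrogen or sulfur atoms, and in mammals they share with cytochrome P450 enzymes the oxidation of the sulfur of albendazole.

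The deposited values are log2 signals from Affymetrix arrays, with 1 array a sample, and precision is limited by how few arrays there are. DMSO replicate 1 stood apart: its correlation with each other array across probe sets lay between 0.934 and 0.943, against 0.988 to 0.996 among the other 5 arrays, and its values were compressed, with an SD of 1.73 against 1.98 to 2.02. Each result is therefore given with and without it. Of 27 markers of intestine, body wall muscle, neurons, epidermis, germline and sperm, 25 were measured, 0 had an unadjusted p under 0.05, and the mean signals of each of the 6 lists overlapped between the groups. The 2 sperm markers measured were dim, with mean log2 signals of 7.62 and 7.88, and the table gives no detection calls. Their highest mean among the DMSO samples was 8.34, and 7.67 without DMSO replicate 1. Some bright msp genes, which encode major sperm proteins, were also higher in that array and were picked after their values were seen. In msp-53, msp-19 and msp-65 it exceeded the mean of the other 5 arrays (11.91, 11.62 and 12.17) by 1.38, 1.33 and 1.34. What raised these genes in that array was not tested. The RNA came from whole worms, so fewer cells of a type and less RNA per cell cannot be told apart.

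The comparison of albendazole with DMSO asks whether the transcripts of these enzymes differ once worms have met the drug. No member passed limma's test after Benjamini-Hochberg adjustment over all 22548 probe sets, where 0% of all genes passed, and the smallest adjusted p among the members was 0.651. The largest difference was that of the short-chain dehydrogenase gene dhs-23, with a signal 2.27-fold higher with albendazole. Next came the aldehyde dehydrogenase genes alh-5 (1.5-fold higher) and alh-10 (1.46-fold) and the monooxygenase gene fmo-3 (1.47-fold), and the lowest value was that of dhs-25, 1.39-fold lower. At an unadjusted p under 0.05, 3 of 48 members were higher, dhs-23, alh-5 and alh-6, against 1.45% of all genes, and 0 were lower, against 0.368%. For 38 of the 48 genes the 95% interval of the log2 fold change lay inside a 2-fold change in both directions. The same held for 13930 of all 17118 genes. Without DMSO replicate 1 it held for 44 of the 48 members and for 16725 of all genes.

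The 3 treated samples were all above the 3 controls in 9 members, or 18.8%, and in 7.17% of all genes. They were all below in 3 members, or 6.25%, and in 10.2% of all genes. A positive log2 fold change was found in 34 of 48 members (70.8%), against 52.2% of all genes, and the median was 0.16 against 0.02. Most of these values moved with 1 array. The numbers of members above or below all controls could only stay or rise when a control was left out. Without DMSO replicate 1, 23 members had a positive value (47.9%, against 41.4% of all genes), and the median was -0.01 against -0.02. In that comparison the treated samples were all above the other 2 controls in 9 members, or 18.8%, against 9.6% of all genes. They were all below them in 7 members, or 14.6%, against 15.6% of all genes. At an unadjusted p under 0.05 there were then 2 higher members, dhs-23 and fmo-1, against 2.73% of all genes, and 2 lower ones, dhs-25 and dhs-14, against 2.84%. With the 5 arrays 0% of all genes passed after adjustment and the smallest adjusted p of a member was 0.775. Quantile normalization, which gives all arrays 1 distribution, turned the sign of 13 members with small values, among them dhs-28 (-0.04), dhs-29 (-0.03) and alh-9 (-0.01). Cyclic loess normalization turned that of 16, among them fmo-2 (-0.10) and alh-3 (-0.11), and brought dhs-3 to 0.00.

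**Figure D1:**
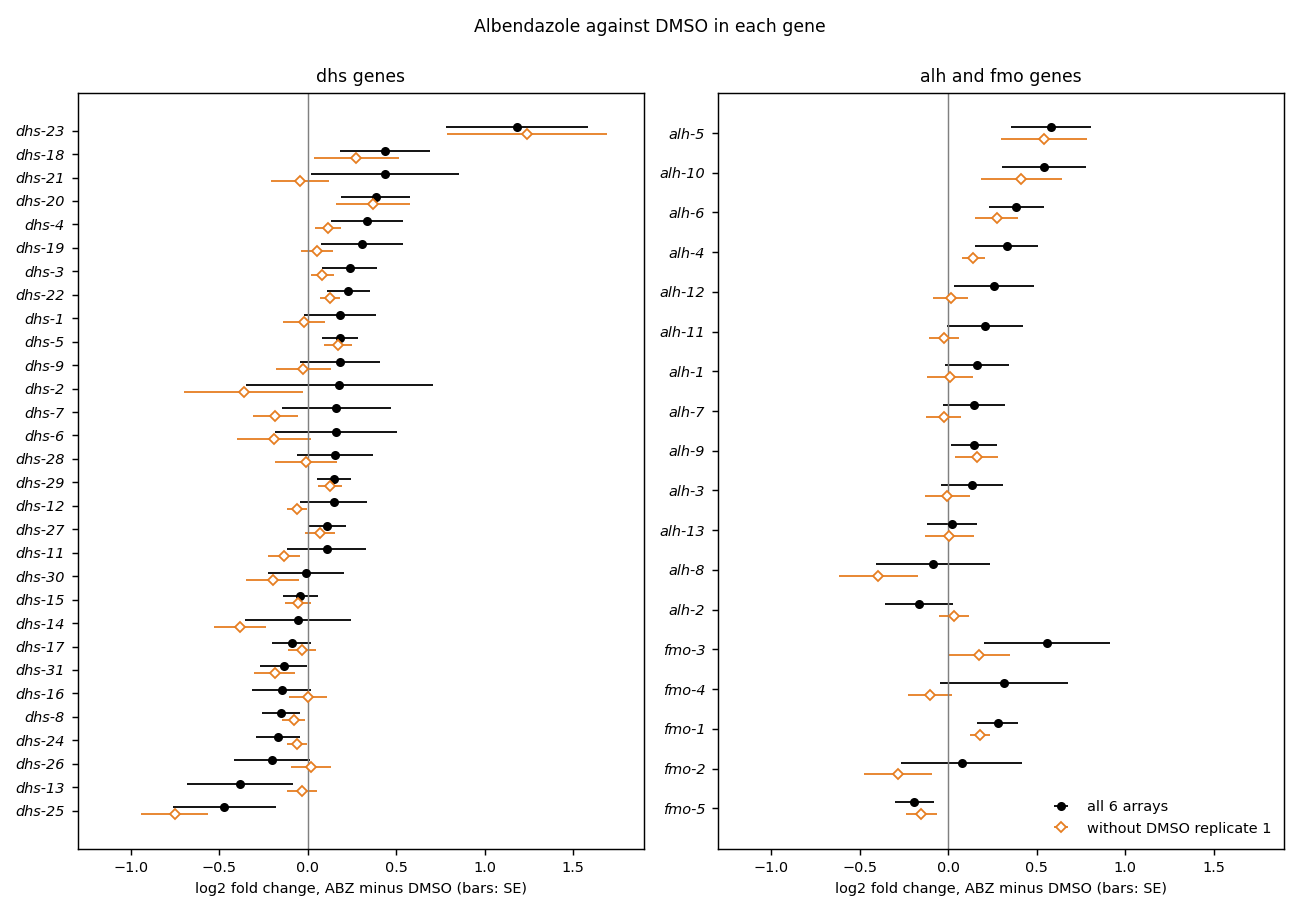
Log2 fold change of albendazole against DMSO (x axis, log2 units) for each of the 48 genes, with the 30 dhs genes on the left and the 13 alh and 5 fmo genes on the right, each family sorted by its value with all arrays. Filled circles use all 6 arrays, open diamonds leave out DMSO replicate 1, and bars are standard errors of the limma fit. The value of dhs-23 is 1.18 and 1.24, and those of fmo-2 (0.08 and -0.28) and fmo-4 (0.32 and -0.10) change sign.

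Among the 30 short-chain dehydrogenase genes, dhs-23 stood out upward and dhs-25 downward, and most others lay close to 0. The log2 signal of dhs-23 (NCBI gene 180038) was 8.03, 9.59 and 8.32 with albendazole and 7.58, 7.49 and 7.32 with DMSO, in the order of replicates 1, 2 and 3. All 3 albendazole samples were above all 3 DMSO samples, which lay close together, and ABZ replicate 2 was far above the other albendazole samples. The means were 8.65 ± 0.83 against 7.46 ± 0.13 (SD, n = 3 each), which gives 1.18 as log2 fold change (SE 0.40, 95% interval 0.21 to 2.16) with an unadjusted p of 0.0248 and an adjusted p of 0.651 in limma. The value was 1.24 without DMSO replicate 1 and 0.71 without ABZ replicate 2, and its adjusted p stayed between 0.436 and 0.961 under all alternatives run.

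The signal of dhs-25 (NCBI gene 180486) was 8.99, 9.45 and 8.81 with albendazole and 8.99, 9.87 and 9.81 with DMSO. DMSO replicate 1 sat among the albendazole samples, while the other 2 DMSO samples were above all of them. With all arrays the log2 fold change was -0.47 (SE 0.29, 95% interval -1.17 to 0.23, adjusted p 0.651 in limma). Without DMSO replicate 1 it was -0.75 (95% interval -1.22 to -0.29), with an unadjusted p of 0.00775 and an adjusted p of 0.775.

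The gene dhs-28 (NCBI gene 180950) encodes a peroxisomal dehydrogenase of fatty acid β-oxidation that takes part in making ascaroside pheromones. Its signal was 11.33, 11.74 and 11.29 with albendazole and 10.97, 11.65 and 11.28 with DMSO. The groups overlapped, and in both of them replicate 2 was the highest. Its log2 fold change was 0.15 (95% interval -0.37 to 0.68) and -0.01 without DMSO replicate 1, and its second probe set gave 0.15 and 0.07. The steroid dehydrogenase gene dhs-16 (NCBI gene 178983), which acts in the synthesis of dafachronic acid hormones, had 7.18, 6.97 and 7.0 with albendazole and 7.49, 6.92 and 7.17 with DMSO. Here DMSO replicate 1 was the highest of the 6 samples, and the log2 fold change of -0.15 became 0.00 without it.

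The gene dhs-3 (NCBI gene 172603) encodes a protein found on intestinal lipid droplets. Its signal was 10.66, 10.55 and 10.56 with albendazole and 10.04, 10.49 and 10.53 with DMSO. The albendazole samples were all above the DMSO samples, but by a narrow margin for DMSO replicates 2 and 3, and DMSO replicate 1 was lower by 0.52 than the mean of the other 5 arrays. The log2 fold change was 0.24 (95% interval -0.14 to 0.62) with all arrays and 0.08 (-0.08 to 0.24) without that array, and the second probe set, on which the groups did not overlap either, gave 0.17 and 0.17.

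In a further 4 dhs genes every treated sample was above every control, by small amounts. For dhs-4 the signals were 7.55, 7.38 and 7.42 with albendazole and 6.68, 7.33 and 7.35 with DMSO, and for dhs-22 they were 11.72, 11.71 and 11.75 with albendazole and 11.29, 11.61 and 11.60 with DMSO. In both genes DMSO replicate 1 lay far below the other DMSO samples, and the albendazole samples exceeded those others only slightly. The values of dhs-5 were 7.45, 7.57 and 7.37 with albendazole and 7.27, 7.26 and 7.32 with DMSO, and those of dhs-29 were 8.83, 8.86 and 8.96 with albendazole and 8.69, 8.75 and 8.77 with DMSO. In these 2 genes the 3 DMSO samples lay close together, and DMSO replicate 1 was not apart. The log2 fold changes were 0.33, 0.23, 0.18 and 0.15 for dhs-4, dhs-22, dhs-5 and dhs-29, and 0.11, 0.12, 0.17 and 0.12 without DMSO replicate 1. On the second probe set of dhs-4 the groups overlapped, with 0.19 and 0.04. The adjusted p was 0.651 for each of the 4 genes in limma.

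In the other direction, every treated sample was below every control for dhs-8 and dhs-24. The signal of dhs-8 was 6.80, 6.85 and 6.72 with albendazole and 7.09, 6.85 and 6.89 with DMSO. The signal of dhs-24 was 6.35, 6.37 and 6.35 with albendazole and 6.74, 6.44 and 6.39 with DMSO. In both genes DMSO replicate 1 was the highest sample, and the remaining gap was narrow: the log2 fold change was -0.15 for dhs-8 and -0.17 for dhs-24, and without that array -0.08 and -0.06. The probe set of dhs-24 had the lowest mean signal of the family, and that of dhs-12 the highest, which orders probe sets and not transcript amounts. For dhs-12 the signals were 11.69, 11.71 and 11.75 with albendazole and 11.16, 11.79 and 11.76 with DMSO. Apart from DMSO replicate 1, which was lower by 0.59 than the mean of the others, these samples differed little. The log2 fold change of 0.15 became -0.06 without that array, and the albendazole samples then all lay narrowly below the other DMSO samples.

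With all arrays the groups overlapped in the other dhs genes. Log2 fold changes above 0.2 were found for dhs-18 (0.43), dhs-21 (0.43), dhs-20 (0.38) and dhs-19 (0.31). In dhs-21, whose product reduces sugars and dicarbonyls, the value was -0.04 without DMSO replicate 1, which read 8.87 where the other DMSO samples read 10.39 and 10.21. Without that array dhs-18, dhs-20 and dhs-19 had 0.27, 0.37 and 0.05. The value of dhs-13 was -0.38 with all arrays and -0.03 without DMSO replicate 1, which at 8.79 was far above the range of 7.59 to 7.80 of the other 5 arrays. Apart from dhs-14 and dhs-15, the remaining genes lay between -0.20 (dhs-26) and 0.18 (dhs-1), and without DMSO replicate 1 between -0.36 (dhs-2) and 0.07 (dhs-27). Among these, the albendazole samples of dhs-11 (-0.13) all lay below the DMSO samples once DMSO replicate 1 was left out.

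The neighbouring genes dhs-14 and dhs-15, which RefSeq places with 1 protein-coding gene between them, did not show the same values. They are described for their position, after their values were seen. The signal of dhs-14 was 9.21, 9.67 and 9.35 with albendazole and 8.82, 9.87 and 9.72 with DMSO, and that of dhs-15 was 7.36, 7.45 and 7.47 with albendazole and 7.44, 7.41 and 7.56 with DMSO. Without DMSO replicate 1, the albendazole samples of dhs-14 all lay below the DMSO samples, with a log2 fold change of -0.38 (unadjusted p 0.0395, adjusted p 0.775 in limma), against -0.06 with all arrays. For dhs-15 the values were -0.06 and -0.04, with overlapping groups. The family as a whole had 19 of 30 positive log2 fold changes and a median of 0.15, and without DMSO replicate 1 it had 12 and -0.03. With the arrays forced to a common distribution by quantile normalization there were 12 positive values and a median of -0.04.

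**Figure D2:**
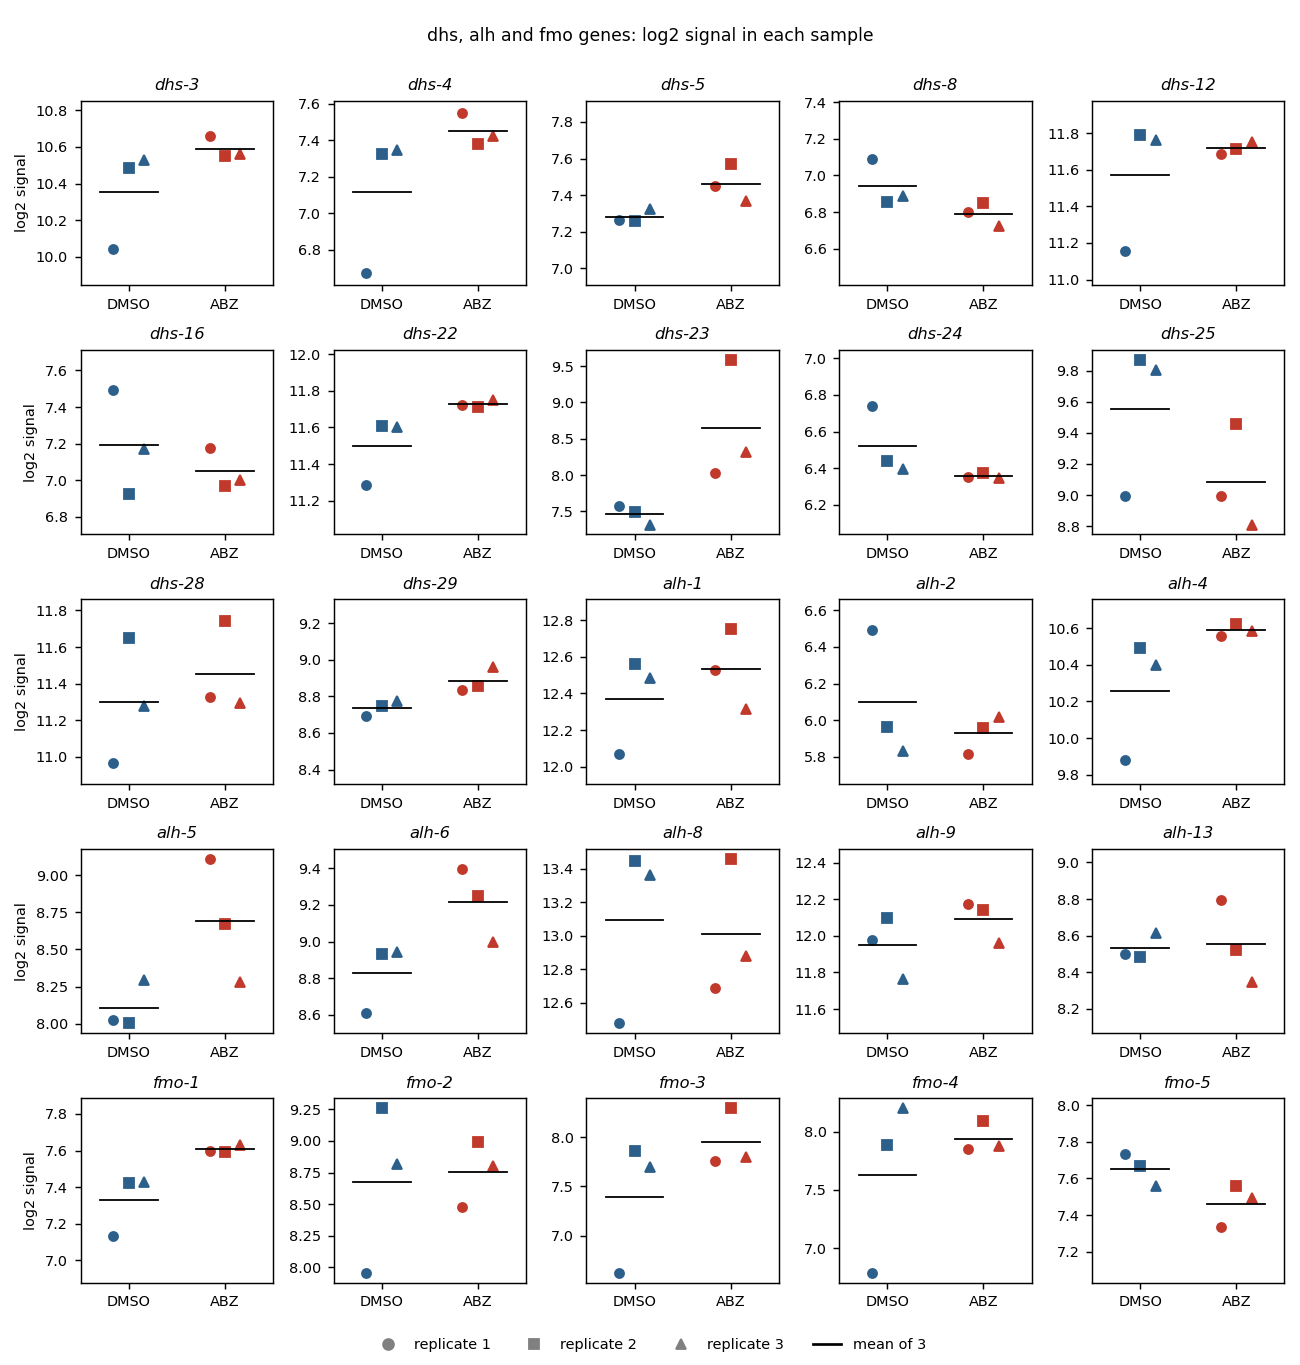
Log2 signal (y axis, own scale in each panel) in each of the 6 samples for the 25 genes chosen by a rule on family, test, overlap and name. Blue symbols are DMSO samples, red symbols are albendazole (ABZ) samples, symbol shapes are replicate numbers and lines are means of 3. DMSO replicate 1 (blue circle) is the lowest sample in panels such as dhs-4, alh-4 and fmo-3 and the highest in dhs-8, dhs-16 and dhs-24; for dhs-23 the albendazole samples span 8.03 to 9.59 and the DMSO samples 7.32 to 7.58.

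Among the 13 aldehyde dehydrogenase genes, alh-5, alh-10, alh-6 and alh-4 had the highest log2 fold changes, and none passed after adjustment. The signal of alh-5 (NCBI gene 178680) was 9.11, 8.67 and 8.28 with albendazole and 8.02, 8.0 and 8.29 with DMSO. ABZ replicates 1 and 2 were above all DMSO samples, while ABZ replicate 3 lay just below DMSO replicate 3. The means were 8.69 ± 0.41 against 8.11 ± 0.16 (SD, n = 3 each), and the log2 fold change was 0.58 (SE 0.22, 95% interval 0.04 to 1.13, unadjusted p 0.0402 and adjusted p 0.651 in limma). It was 0.54 without DMSO replicate 1 (95% interval -0.06 to 1.14, unadjusted p 0.0693 in limma). Without ABZ replicate 1, the highest sample, it was 0.37. The groups also overlapped in alh-10, with log2 fold changes of 0.54 with all arrays and 0.41 without DMSO replicate 1.

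The gene alh-6 (NCBI gene 173510) encodes the mitochondrial enzyme that oxidises pyrroline carboxylate to glutamate in the breakdown of proline. Its signal was 9.40, 9.25 and 9.0 with albendazole and 8.61, 8.93 and 8.95 with DMSO. All albendazole samples were above all DMSO samples, with ABZ replicate 3 only slightly above DMSO replicates 2 and 3. The log2 fold change was 0.39 (SE 0.16, 95% interval 0.01 to 0.76, unadjusted p 0.0467, adjusted p 0.651 in limma), and without DMSO replicate 1 it was 0.28 (95% interval -0.02 to 0.58). On the side of proline synthesis, alh-13 (NCBI gene 181417) encodes the enzyme that makes glutamate semialdehyde. Its signal was 8.79, 8.52 and 8.35 with albendazole and 8.50, 8.48 and 8.61 with DMSO. These groups overlapped, with a log2 fold change of 0.02 (95% interval -0.32 to 0.36), and 0.01 without DMSO replicate 1. For pycr-1, which encodes a pyrroline carboxylate reductase of the same synthesis, it was 0.13, and -0.05 without DMSO replicate 1.

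The gene alh-4 (NCBI gene 179026) encodes a fatty aldehyde dehydrogenase and is measured by 3 probe sets. On the brightest its signal was 10.56, 10.63 and 10.59 with albendazole and 9.88, 10.49 and 10.40 with DMSO. The albendazole samples lay close together and above all DMSO samples, and DMSO replicate 1 was lower by 0.65 than the mean of the others. The log2 fold change was 0.33 (95% interval -0.10 to 0.76) and 0.14 (-0.01 to 0.30) without DMSO replicate 1. The other 2 probe sets gave 0.60 and 0.41 with all arrays and 0.21 and 0.07 without it, and on both the groups did not overlap with all arrays.

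The gene alh-8 (NCBI gene 174800) encodes methylmalonate semialdehyde dehydrogenase, an enzyme of valine breakdown that also acts last in the shunt that worms use for propionate. Its signal was 12.69, 13.46 and 12.88 with albendazole and 12.48, 13.44 and 13.36 with DMSO. ABZ replicate 2 stood with DMSO replicates 2 and 3 at the top, and DMSO replicate 1 with ABZ replicates 1 and 3 at the bottom. The samples of a group therefore differed among themselves more than the groups did: the SD was 0.40 with albendazole and 0.54 with DMSO, and the log2 fold change was -0.09 (95% interval -0.87 to 0.70).

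The hydrolase gene hach-1 and the hydratase gene ech-6, whose products act in the same shunt, split the samples in the same way. For hach-1 the signals were 10.94, 11.87 and 10.94 with albendazole and 10.53, 12.14 and 12.04 with DMSO. For ech-6 they were 12.36, 13.27 and 12.41 with albendazole and 12.33, 13.32 and 13.34 with DMSO. In both genes ABZ replicate 2 was again near DMSO replicates 2 and 3, and the other 3 samples were lower by nearly a log2 unit or more. Without DMSO replicate 1 the treated samples were all below the 2 controls in hach-1 and in ech-6, as in 15.6% of all genes. The log2 fold changes were -0.84 (unadjusted p 0.0319) and -0.65 (0.0635), and the adjusted p was 0.775 for each in limma. For alh-8 the value was then -0.39, and the groups overlapped.

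**Figure D3:**
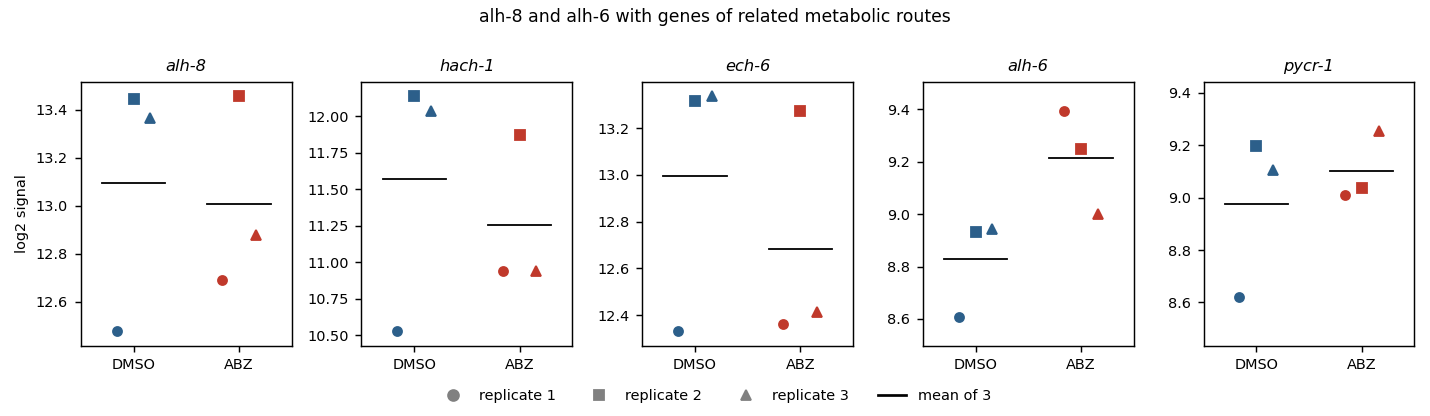
Log2 signal (y axis, own scale in each panel) by sample for alh-8 beside hach-1 and ech-6 of the propionate shunt, and for alh-6 beside pycr-1 of proline metabolism. Colours, shapes and lines stand for group (DMSO blue, ABZ red), replicate number and the mean of 3; in alh-8 the samples form an upper group at 13.36 to 13.46 and a lower one at 12.48 to 12.88, and each holds samples of both treatments.

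The other aldehyde dehydrogenase genes lay near 0. The signal of alh-1 (NCBI gene 175691), which is related to the mitochondrial acetaldehyde-oxidising enzyme of humans, was 12.53, 12.75 and 12.32 with albendazole and 12.07, 12.56 and 12.48 with DMSO. The groups overlapped, and the log2 fold change of 0.16 became 0.01 without DMSO replicate 1, the lowest sample. For alh-9 (NCBI gene 175820), related to the human enzyme of lysine breakdown, the signals were 12.18, 12.14 and 11.96 with albendazole and 11.98, 12.10 and 11.77 with DMSO. Its DMSO replicate 1 was not apart, and the log2 fold change was 0.15 with all arrays and 0.16 without it. The probe set of alh-2 had the lowest mean signal of the family, with 5.82, 5.95 and 6.02 with albendazole and 6.49, 5.96 and 5.83 with DMSO. There DMSO replicate 1 was the highest sample, and the log2 fold change was -0.17 with it and 0.03 without it. The formyltetrahydrofolate dehydrogenase gene alh-3 had 0.13, the succinate semialdehyde dehydrogenase gene alh-7 had 0.15, alh-11 had 0.21 and alh-12 had 0.26, and without DMSO replicate 1 all 4 lay between -0.02 and 0.01. Across the family 11 of 13 log2 fold changes were positive with a median of 0.16, against 9 and 0.01 without DMSO replicate 1 and 7 and 0.02 under quantile normalization.

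Of the 5 flavin-containing monooxygenase genes, fmo-1 was slightly higher and fmo-5 slightly lower with albendazole in every sample, and the other 3 depended on DMSO replicate 1. The signal of fmo-1 (NCBI gene 177954) was 7.60, 7.59 and 7.63 with albendazole and 7.13, 7.42 and 7.43 with DMSO. The albendazole samples nearly coincided and lay above all DMSO samples. The means were 7.61 ± 0.02 against 7.33 ± 0.17 (SD, n = 3 each), 1.21-fold higher, with a log2 fold change of 0.28 (SE 0.12, 95% interval -0.01 to 0.57, unadjusted p 0.0542 and adjusted p 0.651 in limma). Without DMSO replicate 1 it was 0.18 (95% interval 0.04 to 0.32, unadjusted p 0.019, adjusted p 0.775). The second probe set of fmo-1 gave 0.22 and, without that array, 0.15, and its groups did not overlap either.

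The signal of fmo-5 (NCBI gene 178596) was 7.34, 7.56 and 7.49 with albendazole and 7.73, 7.67 and 7.56 with DMSO. All albendazole samples were below the DMSO samples, with a gap that was almost closed, and DMSO replicate 1 was the highest. The log2 fold change was -0.19 (95% interval -0.46 to 0.08, adjusted p 0.651 in limma) and -0.15 without DMSO replicate 1.

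The gene fmo-2 (NCBI gene 177958) is known for its induction by the hypoxia-inducible factor and under dietary restriction, where it prolongs life. Its signal was 8.48, 8.99 and 8.80 with albendazole and 7.96, 9.26 and 8.82 with DMSO. The albendazole samples lay within the range of the DMSO samples, whose replicate 1 was lower by 0.91 than the mean of the other 5 arrays. The log2 fold change was 0.08 (95% interval -0.76 to 0.91), and without DMSO replicate 1 it was -0.28 (-0.75 to 0.19). RefSeq places fmo-2 near fmo-1, with 3 protein-coding genes between them.

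The signal of fmo-3 (NCBI gene 176491) was 7.76, 8.29 and 7.80 with albendazole and 6.62, 7.86 and 7.69 with DMSO. The signal of fmo-4 (NCBI gene 179845), which acts in the epidermis in the handling of osmotic stress, was 7.85, 8.09 and 7.87 with albendazole and 6.79, 7.88 and 8.20 with DMSO. In both genes DMSO replicate 1 lay about a log2 unit below every other sample, and the rest overlapped. The log2 fold change of fmo-3 was 0.56 (95% interval -0.30 to 1.42) with all arrays and 0.17 (-0.26 to 0.61) without that array. That of fmo-4 was 0.32 (-0.56 to 1.2) and -0.10 (-0.41 to 0.21), and its second probe set gave 0.34 and -0.10. Over the family, 4 of 5 log2 fold changes were positive with a median of 0.28, against 2 and -0.10 without DMSO replicate 1 and 4 and 0.34 under quantile normalization. Whether the families differ from each other in their response was not tested.

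Across the arrays, the members varied in 2 shared ways that do not follow the treatment. First, DMSO replicate 1 was the lowest of the 6 samples in 31 of 48 members (64.6%), against 46.3% of all genes, and the highest in 8. Among the members its shift went with signal, which did not hold for the bright msp genes named above. In the 24 members with the higher mean signals (8.81 to 13.05) it was the lowest sample in 21. There its median difference from the mean of the other arrays was -0.60. In the 24 members with the lower signals (6.01 to 8.81) it was the lowest in 10 and the highest in 8, with a median difference of -0.14. The part of this array in each fold change was measured by leaving it out, as given above.

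**Figure D4:**
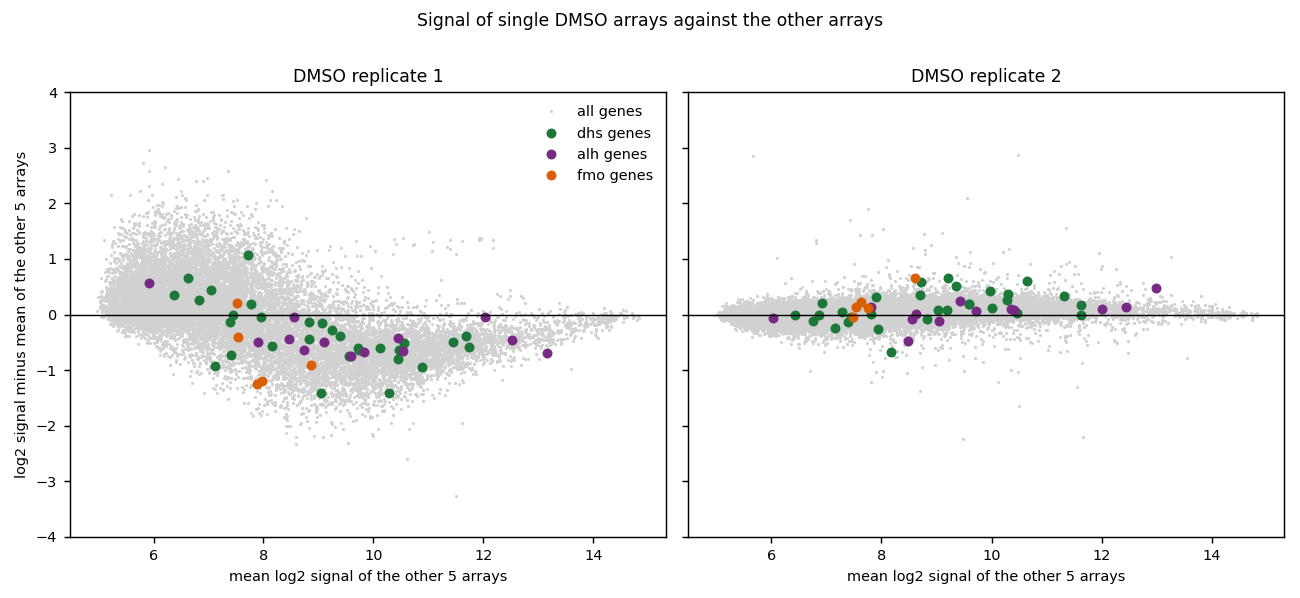
Log2 signal of 1 array minus the mean of the other 5 arrays (y axis, log2 units) against that mean (x axis, log2 signal) for DMSO replicate 1 on the left and DMSO replicate 2 on the right. Grey points are all 17118 genes and coloured points are the dhs, alh and fmo genes. On the left many genes spread upward at low and downward at middle signal, with a median of -0.60 for the 24 brighter members. On the right the genes stay near 0.

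Second, ABZ replicate 2 held the highest of the 3 albendazole values in 31 of 48 members (64.6%), against 29.5% of all genes, in 20 of 30 dhs, 7 of 13 alh and 4 of 5 fmo genes. DMSO replicate 2 was above DMSO replicate 3 in 31 members (64.6%), against 54.9% of all genes. Neither trait was particular to the 3 families. In the 25 genes of related function described below, ABZ replicate 2 was the highest albendazole sample in 16 (64%). DMSO replicate 2 was above DMSO replicate 3 in 20 of those genes (80%). Beside alh-8, the gene dhs-2 shows this pattern over a wide range, with 8.41, 9.59 and 8.71 with albendazole and 7.64, 9.31 and 9.22 with DMSO, and was picked after its values were seen. Its groups overlapped and its log2 fold change was 0.18 with all arrays and -0.36 without DMSO replicate 1. The labels do not say that a replicate number marks a shared culture or day.

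Genes of related function outside the 3 names lay in a similar range. A list of 28 genes held steroid, fatty acyl and alcohol dehydrogenases, the cytochrome P450 reductase, and partners of dhs-28, dhs-16, alh-6, alh-8 and alh-3. It also held the tyrosine breakdown genes hpd-1 and fah-1, and dpyd-1. Of these genes 25 were measured, and 0 passed in either direction. Their median log2 fold change was 0.09, with 16 of 25 positive (64%, against 52.2% of all genes). Without DMSO replicate 1 it was 0.07, with 13 positive (52%, against 41.4% of all genes). Every treated sample was above every control in emb-8 and stdh-1, or 8% of the list, against 7.17% of all genes. Every treated sample was below every control in hsd-1, or 4%, against 10.2% of all genes. These 3 genes were picked for this after their values were seen. The signal of emb-8, the reductase that passes electrons to cytochrome P450 enzymes, was 10.46, 10.49 and 10.31 with albendazole and 9.38, 10.14 and 10.30 with DMSO. DMSO replicate 1 was far below the other samples, and the log2 fold change of 0.48 became 0.19 without it. The steroid dehydrogenase family gene stdh-1 had 0.47 and 0.23, and the hydroxysteroid dehydrogenase gene hsd-1 had -0.31 and -0.17, all with an adjusted p of 0.651 with all arrays in limma. Of the partners of dhs-28 in peroxisomal β-oxidation, daf-22 had 0.35, acox-1.1 had 0.19 and maoc-1 had 0.15, and of those of dhs-16 in hormone synthesis, daf-36 had 0.06 and daf-9 had -0.17. With all arrays the groups overlapped in each of these 5 genes. Without DMSO replicate 1 the treated samples were all below the 2 controls in daf-9 (-0.22) and all above them in daf-36 (0.10). In that comparison daf-22, acox-1.1 and maoc-1 had 0.18, 0.08 and -0.01 with overlapping groups. Over the list, the treated samples were then all below the 2 controls in 20% of the genes, against 15.6% of all genes. They were all above them in 16%, against 9.6% of all genes.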

How the data were processed

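Whole-worm RNA of 6 samples, 3 of each group, was hybridised to Affymetrix C. elegans arrays. The deposited table gives 1 number per probe set and array, taken as log2 signal from its range of 4.89 to 14.89. How it was made is not described further: the submitters' processing notes name RMA and limma, without versions or roles. No raw scans were used. Of 22625 probe sets, 77 controls were left out, and the remaining 22548 were tested in limma (version 3.58.1, R version 4.3.3; lmFit and eBayes with group as the only term, two-sided, Benjamini-Hochberg adjustment over all probe sets, threshold 0.05). A log2 fold change is albendazole minus DMSO. The platform annotation lists a single gene for 20766 probe sets. All 48 member symbols matched the RefSeq table of assembly WBcel235 by gene number, and 0 probe sets list a member together with another gene. For 23 members the probe set name ends in _s_at, which the maker uses where probes can match several transcripts; whether the probes tell family members apart was not tested.

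Members and lists were chosen with earlier results of these data known. Values by sample are given for all fmo genes, for dhs and alh genes with an unadjusted p under 0.05 or groups that do not overlap, for the ends of each family in signal and fold change, and for dhs-3, dhs-16, dhs-23, dhs-28, alh-1, alh-4, alh-6, alh-8, alh-9 and alh-13, which makes 25 genes. The values of dhs-2, dhs-14 and dhs-15 were added after they were seen, and the others are given by fold change or range. Samples are biological replicates per the labels, which do not say that a number marks a shared culture, so the numbers were not treated as pairs. Same-numbered samples deviated together with correlations of 0.125, 0.264 and 0.066 across probe sets. Alternatives were 3 scalings, a filter on dim probe sets, the replicate number as a block, an intensity trend with robust settings, array weights, a gene's probe sets averaged, a threshold of 0.1 and each array left out. Replicate 1 of both groups left out was added after the data were seen. The steps were tested on simulated data. The table holds no detection calls.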

Additional observations from a re-analysis of the deposited data

How the results depend on the processing

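No member passed under any alternative run, with a smallest adjusted p between 0.436 and 0.961. Over all probe sets the count of calls stayed at 0 except with array weights, where 5 passed; none of them measures a member. The weight of DMSO replicate 1 was 0.0427. The count at an unadjusted p under 0.05 was 420 with all arrays, 2232 with array weights, 923 with replicate 1 of both groups left out and 105 (without ABZ replicate 1) to 1294 (without DMSO replicate 1) with 1 array left out. With the replicate number as a block it was 259 and 0 passed. In this balanced design a block cannot change a log2 fold change, so no direction could turn. Each sample's deviations correlated best with those of its own number, which comes from the data and not the design. The margin was narrow for DMSO replicate 3, with 0.066 for ABZ replicate 3 and 0.062 for ABZ replicate 2. Deviations within a group sum to 0, so these correlations are not independent and cannot decide whether samples were paired. With 1 array left out, the family medians ranged over -0.0274 to 0.24 (dhs), 0.0146 to 0.26 (alh) and -0.10 to 0.37 (fmo), and the counts of positive values over 12 to 22, 9 to 12 and 2 to 4, with the lowest medians without DMSO replicate 1. Positive values numbered 12 dhs and 7 alh genes under quantile and 10 and 7 under cyclic loess normalization, and 2 fmo genes (median -0.0576) when both replicates 1 were dropped. The cause of these moves was not tested.

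With all arrays shifted to 1 median the log2 fold change had the opposite sign in dhs-30 (0.0058). Under quantile normalization the log2 fold change had the opposite sign in pycr-1 (-0.0435), dhs-1 (-0.0481), dhs-6 (-0.0804), dhs-9 (-0.0320), dhs-11 (-0.0987), dhs-12 (-0.0450), dhs-15 (0.0028), dhs-27 (-0.10), dhs-28 (-0.0405), dhs-29 (-0.0305), alh-3 (-0.0881), alh-9 (-0.0087), alh-11 (-0.0045) and alh-13 (-0.12). Under cyclic loess normalization the log2 fold change had the opposite sign in pycr-1 (-0.0800), dhs-1 (-0.0606), dhs-2 (-0.0070), dhs-3 (-0.0016), dhs-6 (-0.0725), dhs-9 (-0.0572), dhs-11 (-0.13), dhs-12 (-0.0406), dhs-15 (0.0082), dhs-27 (-0.0985), dhs-28 (-0.0460), dhs-29 (-0.0372), alh-3 (-0.11), alh-9 (-0.0207), alh-11 (-0.0318), alh-13 (-0.13) and fmo-2 (-0.0971). With array weights the log2 fold change had the opposite sign in pycr-1 (-0.0619), dhs-2 (-0.17), dhs-6 (-0.20), dhs-7 (-0.0814), dhs-11 (-0.0783), dhs-12 (-0.0590), dhs-13 (0.0171), dhs-16 (0.0189), dhs-26 (0.0614), dhs-28 (-0.0167), alh-2 (0.0199), alh-3 (-0.0365), alh-13 (-0.0067) and fmo-2 (-0.29). Leaving out replicate 1 of both groups, the log2 fold change had the opposite sign in pycr-1 (-0.0038), dhs-2 (-0.12), dhs-6 (-0.10), dhs-7 (-0.13), dhs-11 (-0.0614), dhs-12 (-0.0464), dhs-13 (0.0259), dhs-17 (0.0045), dhs-26 (0.12), alh-2 (0.0890), alh-3 (-0.11), alh-13 (-0.11), fmo-2 (-0.15) and fmo-4 (-0.0576). The sign also depended on single arrays left out in dhs-14 (-0.38 to 0.14), dhs-30 (-0.20 to 0.13), alh-8 (-0.39 to 0.0890), alh-13 (-0.0981 to 0.13), dhs-2 (-0.36 to 0.47), dhs-6 (-0.19 to 0.45), fmo-2 (-0.28 to 0.37), pycr-1 (-0.0496 to 0.24), dhs-1 (-0.0206 to 0.29), dhs-7 (-0.18 to 0.38), dhs-9 (-0.0243 to 0.30) and dhs-11 (-0.13 to 0.24). The same held for dhs-12 (-0.0610 to 0.26), dhs-16 (-0.28 to 0.0021), dhs-21 (-0.0435 to 0.72), dhs-26 (-0.32 to 0.0195), dhs-28 (-0.0099 to 0.33), alh-2 (-0.30 to 0.0325), alh-3 (-0.0048 to 0.25), alh-7 (-0.0241 to 0.24), alh-11 (-0.0242 to 0.36), fmo-4 (-0.10 to 0.60) and dhs-15 (-0.0727 to 0.0027). No probe set lists a member together with other genes, so that alternative gave no other value. The filter on dim probe sets (45 members left) and the intensity trend cannot change a log2 fold change, so their unchanged directions carry no information. Averaging a gene's probe sets can change it, and turned no direction in the 6 members with more than 1 probe set.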
